A study of Sus scrofa domesticus with 16 samples.

Results

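The genes described here act in the display of peptides by the major histocompatibility complex (MHC), called SLA in the pig. They were chosen by symbol: TAP1, B2M, CD74, PSMB8, PSMB9, PSMB10, SLA-DRA, SLA-DRB1, SLA-DQB1 and SLA-DMB. Of these 10 genes 9 had a probe set in the array annotation used, and PSMB9 had none. They held 21 of the 23999 probe sets of the array, and 9 of the 6765 genes that a probe set with 1 symbol named. Expression was measured in adrenal glands of 16 domestic pigs, with 1 array per animal on the Affymetrix porcine genome array and biotin-labelled RNA. The high stress group held 8 animals from mixing with high aggressiveness, and the low stress group 8 animals from mixing with low aggressiveness. All animals had been placed with unfamiliar pigs, and the submitters chose the groups to differ in aggressive behaviour and plasma cortisol. The comparison therefore asks how adrenal expression differed between animals selected in that way. The labels name no strain, age or sex and no unmixed animals.

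MHC class I molecules display peptides cut in the cytosol by the proteasome. The transporter TAP, a dimer of TAP1 and TAP2, pumps these peptides into the endoplasmic reticulum, where class I heavy chains pair with beta-2 microglobulin (B2M). Interferon gamma replaces catalytic proteasome subunits by PSMB8, PSMB9 and PSMB10, forming the immunoproteasome. MHC class II molecules instead show peptides from endosomes, mainly on macrophages, dendritic cells and B cells. CD74 is their invariant chain, and the DM molecule, of which SLA-DMB is the beta chain, exchanges the CD74 fragment for a peptide. In the reference gene table of the pig (assembly Sscrofa11.1), TAP1 lies on chromosome 7 between PSMB8 and PSMB9, with TAP2 on the far side of PSMB8. SLA-DMB follows after BRD2, and SLA-DRA, SLA-DRB1 and SLA-DQB1 are on the same chromosome. B2M is on chromosome 1, CD74 on chromosome 2 and PSMB10 on chromosome 6.

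The arrays fell into 2 sets of 8 by the signal of a labelling control, the dap transcripts. Their mean signal was 3588 in the arrays called the high-spike set here and 605 in the low-spike set. Both stress groups had 4 animals in each set, so the sets do not follow the stress groups, but they ran through the values of these genes. Of the 14399 probe sets tested, 5767 (40.1%) passed an adjusted p of 0.05 for a difference between the sets. Of those 5767, 3414 were higher in the high-spike set. Of the 17 tested probe sets of the antigen presentation genes 8 passed, every one lower in the high-spike set. B2M held 4 of these 8, and by the brightest probe set of each gene 5 of 9 genes passed. The log2 difference, high-spike minus low-spike, was -0.65 for CD74 (limma, adjusted p = 0.00745), -0.52 for SLA-DRA (0.00755), -0.51 for SLA-DMB (0.00256) and -0.33 for PSMB10 (0.0153). TAP1 had a difference of -0.01. The labels do not say what the sets stand for. The 3′ to 5′ actin control ratio, a sign of RNA quality, separated the sets without overlap (log2 2.40 to 3.14 in the high-spike and 3.32 to 4.45 in the low-spike set). The part of RNA quality in these set differences was not tested.

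Levels are log2 of the deposited signal, a linear intensity. A probe set was tested when its mean log2 signal reached 6.15, a signal of 71.1, which kept 17 of the 21 probe sets and at least 1 for each of the 9 genes. One of 3 probe sets passed for TAP1 and for SLA-DRB1, all 9 for B2M, and the only probe set for each other gene. The adrenal gland is a mixture of cells, and in such bulk tissue fewer cells of a type and less RNA per cell cannot be told apart.

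TAP1 signal was higher in the high stress glands, by 1.29-fold (95% interval 1.06 to 1.56), but it did not pass the test across all probe sets. Its lowest, median and highest log2 signals were 10.06, 10.53 and 10.81 in the high stress animals, against 9.74, 10.13 and 10.61 in the low stress animals. In deposited units the high stress signals ran between 1071 and 1794 and the low stress signals between 855 and 1567. The groups overlapped: 7 of 8 high stress animals were above the low stress mean, but only 2 were above the highest low stress animal. The means were 10.50 ± 0.24 in high stress and 10.13 ± 0.27 in low stress glands (SD, n = 8 each). The log2 difference of 0.36 (SE 0.13) had an unadjusted p of 0.0122 and an adjusted p of 0.999 by limma over 14399 probe sets. It ranked 98 of these by p. The exact permutation test of this single value over all 12870 splits gave p = 0.0140, two-sided, and p = 0.0176 when animals were exchanged only within the sets. That p is for 1 gene considered alone, and TAP1 was picked with earlier results of these arrays known.

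The stress contrast of the whole array frames this value. No probe set passed at an adjusted p under 0.05 (0 of 14399, or 0%), and 460 (3.19%) had an unadjusted p under 0.05. Among the 17 probe sets of the antigen presentation genes 0 passed, and 1, TAP1, had an unadjusted p under 0.05. Blocking on the spike-in set left 1 call (0.00694%), NPM3, which is outside this list and was named after its value was seen, and TAP1 had an adjusted p of 0.733.

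The size of the TAP1 difference moved with the set and with a measure of RNA quality. It was 0.49 in the high-spike set (exact permutation p = 0.0286) and 0.23 in the low-spike set (exact permutation p = 0.4, n = 4 against 4 in each). The difference between these values had an unadjusted p of 0.330 by limma. In the high-spike set all 4 high stress animals were above all 4 low stress animals, and in the low-spike set the groups overlapped. The p of the high-spike set is thus the smallest that this two-sided test can give with 4 against 4. The log2 ratio of 3′ to 5′ actin control signal, which rises as RNA is shortened from its 5′ end, was 3.15 ± 0.62 in high stress glands, against 3.38 ± 0.60 in low stress glands (SD, n = 8 each; exact permutation p = 0.472). In the high-spike set it averaged 2.59 in high stress against 2.93 in low stress animals, and in the low-spike set 3.71 against 3.82. With both stress groups pooled in each set, TAP1 was lower where this ratio was higher. The r and rho within sets therefore include the difference between the stress groups. The relation inside the stress groups of each set was not tested. Over all 16 animals, after the means of group and set were removed, r was -0.64. In the high-spike set Pearson's r was -0.60 (exact permutation p = 0.117) and Spearman's rho -0.64 (exact permutation p = 0.0962, n = 8). In the low-spike set r was -0.78 (exact permutation p = 0.0198) and rho -0.67 (exact permutation p = 0.0831, n = 8). Without the 2 animals farthest from the median ratio, r was -0.29 in the high-spike and -0.40 in the low-spike set. Leaving them out also narrows the range of the ratio, so the fall in r does not tell how far the relation rests on those animals. In a fit that took in both the ratio and the set, the TAP1 log2 difference was 0.24 (SE 0.12, unadjusted p = 0.0635 by limma). The part of RNA quality in the TAP1 difference beyond this fit was not tested.

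The other TAP1 probe sets were dim in every animal, with mean log2 signals of 3.05 and 3.07. Without the filter their log2 differences were 0.22 (SE 0.17) and 0.82 (SE 0.83), with unadjusted p of 0.221 and 0.339 by limma. The TAP1 result therefore rests on 1 probe set.

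**Figure D1:**
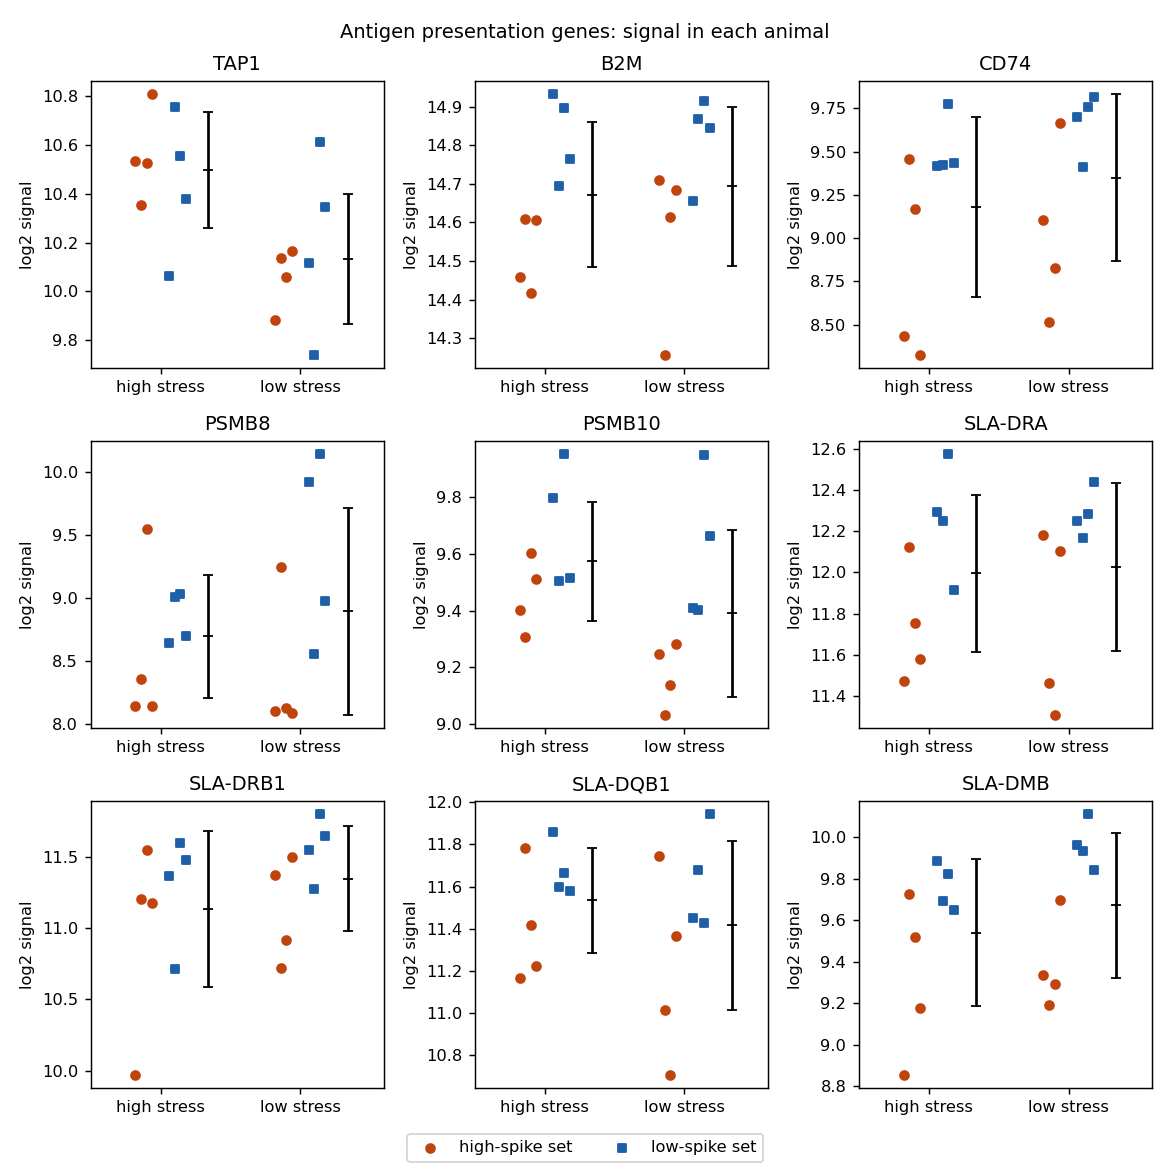
Log2 signal of the brightest probe set of each of the 9 genes in each of the 16 animals, high stress left and low stress right, with bars for mean and SD (n = 8 each); circles are the high-spike set and squares the low-spike set. TAP1 sits higher in high stress glands (10.50 against 10.13), whereas the class II genes and CD74 divide by set more than by stress.

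The immunoproteasome subunits had no common direction. PSMB8, the inducible subunit with chymotrypsin-like activity, had a lowest, median and highest log2 signal of 8.14, 8.67 and 9.54 in high stress against 8.09, 8.77 and 10.14 in low stress animals. The groups overlapped over most of their range. Its log2 difference was -0.20 (SE 0.31), with 0.16 in the high-spike set and -0.55 in the low-spike set. The difference between the sets had an unadjusted p of 0.201 by limma. With the actin ratio and the set in the fit, PSMB8 had -0.53 (SE 0.22, unadjusted p = 0.0261, adjusted p = 0.579 by limma), and without low stress replicate 5 it had -0.02 in the fit with no covariate. PSMB8 also varied most among animals: its SD within group and set was 0.60, above that of 95% of the probe sets tested, where the median SD was 0.27. TAP1, its neighbour on the chromosome, had an SD of 0.26.

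PSMB10, the inducible subunit with trypsin-like activity, had 9.31, 9.51 and 9.95 in high stress against 9.03, 9.34 and 9.95 in low stress animals. Of the high stress animals 7 of 8 were above the low stress mean, and the groups shared most of their range. The log2 difference was 0.18 (SE 0.13), with exact permutation p = 0.171 over all splits and 0.0788 within sets. It was 0.28 in the high-spike and 0.09 in the low-spike set. PSMB8 takes the place of PSMB5 and PSMB10 that of PSMB7 in the immunoproteasome. The log2 difference of PSMB8 minus PSMB5 had a mean of -4.15 ± 0.52 in high stress glands, against -3.87 ± 0.74 in low stress glands (SD, n = 8 each; exact permutation p = 0.409). Its level depends on the 2 probes, so only the contrast between groups is read. PSMB10 minus PSMB7 had a mean of -3.29 ± 0.21 in high stress glands, against -3.30 ± 0.20 in low stress glands (exact permutation p = 0.907, n = 8 each). Both changed sign between the sets. The high minus low stress contrast of PSMB8 minus PSMB5 was 0.08 in the high-spike and -0.64 in the low-spike set. For PSMB10 minus PSMB7 it was 0.15 in the high-spike and -0.12 in the low-spike set. These values within sets were not tested.

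For B2M, the light chain of class I, the brightest probe set varied little among animals. It had 14.42, 14.65 and 14.93 in high stress against 14.26, 14.70 and 14.91 in low stress animals. The groups covered almost the same range, and the log2 difference was -0.02 (95% interval -0.25 to 0.21). The SD within group and set was 0.14, and 7.10% of the probe sets tested had a lower one. The 9 probe sets under the B2M symbol had log2 differences between -0.17 and 0.20, 4 higher and 5 lower in high stress, with a median of -0.01. Their SDs within group ran between 0.18 and 0.49 in high stress and between 0.20 and 0.46 in low stress animals. They did not move as 1 gene: over the 36 pairs of them the correlation within group and set ran between -0.32 and 0.86, with a median of 0.26. Their difference between spike-in sets ran between -0.87 and 0.07, and 4 of 9 passed. B2M statements below use the brightest probe set.

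SLA-DRA, SLA-DRB1, SLA-DQB1, SLA-DMB and CD74 each differed between the stress groups by less than its standard error. SLA-DRA, the alpha chain of the DR molecule, had 11.47, 12.02 and 12.57 in high stress against 11.31, 12.17 and 12.44 in low stress animals. SLA-DRB1, its beta chain, had 9.97, 11.28 and 11.60 in high stress against 10.72, 11.43 and 11.80 in low stress animals. The groups overlapped for both chains, and 1 high stress animal was lowest for SLA-DRB1. The log2 differences were -0.03 (SE 0.19) for SLA-DRA and -0.21 (SE 0.22) for SLA-DRB1, and SLA-DRB1 had -0.05 without high stress replicate 2.

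SLA-DQB1, the beta chain of the DQ molecule, had 11.17, 11.59 and 11.86 in high stress against 10.71, 11.44 and 11.94 in low stress animals. All high stress values lay inside the low stress range. The log2 difference was 0.12 (SE 0.16), with 0.19 in the high-spike and 0.05 in the low-spike set.

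CD74, the invariant chain, had 8.33, 9.42 and 9.77 in high stress against 8.51, 9.54 and 9.82 in low stress animals. SLA-DMB, of the peptide exchanger DM, had 8.85, 9.67 and 9.88 in high stress against 9.19, 9.77 and 10.11 in low stress animals. For both genes the lowest animal was a high stress one and the highest a low stress one, with wide overlap. The log2 differences were -0.17 (SE 0.23) for CD74 and -0.13 (SE 0.17) for SLA-DMB, which had -0.06 in the high-spike and -0.20 in the low-spike set. Over all 17 probe sets 7 were higher in high stress, with a median log2 difference of -0.01, beside 41.6% higher and a median of -0.03 over all probe sets tested.

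**Figure D2:**
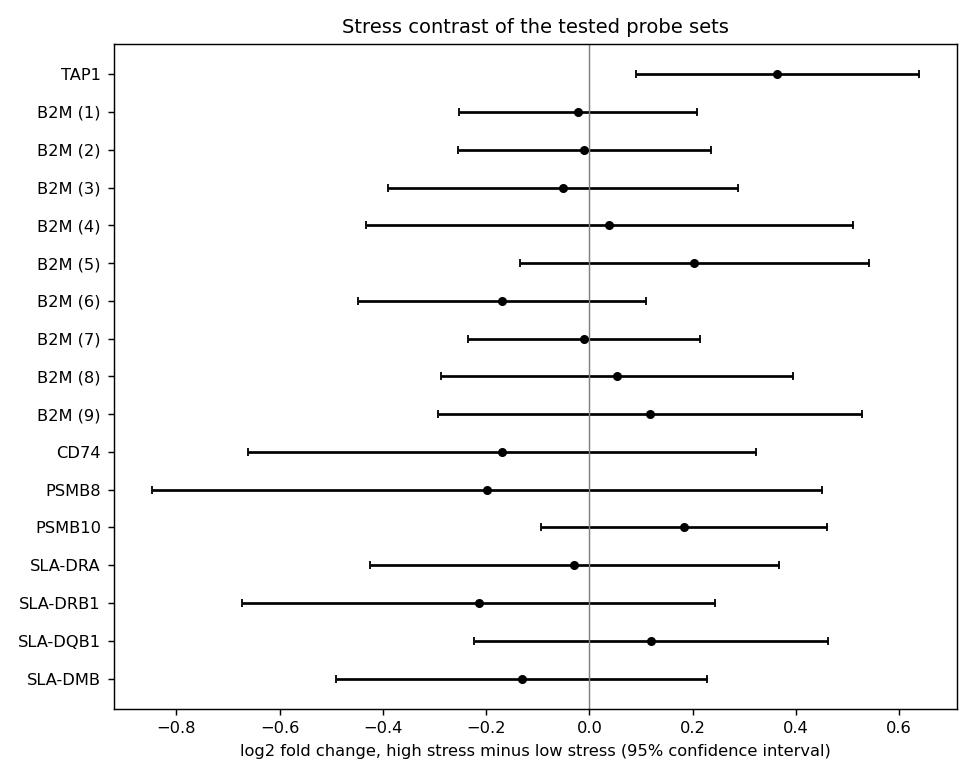
Log2 fold change, high stress minus low stress, with its 95% confidence interval for the 17 tested probe sets; the 9 probe sets of B2M are numbered. Only the interval of TAP1 (0.09 to 0.64) leaves out 0, with no adjustment for the number of probe sets.

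From animal to animal, correlations were positive among most of these genes, and those of TAP1 with the class II genes and CD74 were at or below 0.04. Unless given for 1 set, correlations here were computed over the 16 animals after the means of stress group and spike-in set had been removed. The r and rho within 1 set, with their permutation p, pooled both stress groups. They can therefore include the difference between the groups and are not the same measure. All 10 pairs among SLA-DRA, SLA-DRB1, SLA-DQB1, CD74 and SLA-DMB had a positive correlation, between 0.42 and 0.82 with a median of 0.63. Over the other 26 pairs of the 9 genes 18 were positive, with a median of 0.27. The brightest B2M probe set had 0.38 to 0.51 with these 5 genes. The other B2M probe sets had -0.27 to 0.28 with SLA-DRA and -0.45 to 0.49 with SLA-DRB1, so this relation depends on the probe set. PSMB10 had 0.53 with SLA-DRB1, so positive values did not end with class II. None passed a test across all probe sets. With the log2 signal of a gene as a covariate in limma, beside group and set, 0 of 14398 probe sets (0%) passed for SLA-DRA, and 446 had an unadjusted p under 0.05. The same count of 0 was found for each of the other 8 genes, over 14390 probe sets for B2M and 14398 for the rest.

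SLA-DRA and SLA-DQB1 were the closest pair, at 0.82. In the high-spike set Pearson's r was 0.91 (exact permutation p = 0.000546) and Spearman's rho 0.95 (exact permutation p = 0.00114, n = 8), and r was 0.80 without the 2 farthest animals. In the low-spike set r was 0.34 (exact permutation p = 0.411) and rho 0.38 (exact permutation p = 0.360, n = 8). SLA-DQB1 ranked 7 of 14398 probe sets by its relation to SLA-DRA, with an adjusted p of 0.896. The relation was thus clear in 1 set and weak in the other, where SLA-DRA signals covered a narrower range.

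CD74 and SLA-DMB also had 0.82. In the high-spike set r was 0.91 (exact permutation p = 0.00193) and rho 0.95 (exact permutation p = 0.00114, n = 8), with r of 0.93 without the 2 farthest animals. In the low-spike set r was 0.44 (exact permutation p = 0.269) and rho 0.00 (exact permutation p = 1, n = 8). Over the 10 class II pairs r was positive for 10 in the high-spike set (median 0.69) and for 7 in the low-spike set (median 0.32). These belong to 72 correlations within sets, 36 pairs in each, and the adjusted p over all probe sets is the one that accounts for the search.

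TAP1 had correlations between -0.32 and 0.04 with the 5 class II genes, and -0.16 with B2M. The other B2M probe sets ran between -0.32 and 0.54 with TAP1, so its relation to B2M depends on the probe set. With the immunoproteasome subunits TAP1 had 0.45 for PSMB8 and 0.44 for PSMB10. The actin ratio, with which TAP1 had -0.64, was not removed from any correlation here, and its part in them was not tested. For TAP1 and PSMB10, r was 0.77 in the high-spike set (exact permutation p = 0.0261) and rho 0.83 (exact permutation p = 0.0154, n = 8), with r of 0.86 without the 2 farthest animals. In that set TAP1 and PSMB10 were both higher in high stress, by 0.49 and 0.28 on the log2 scale, and r includes this. Their relation inside the stress groups of that set was not tested. In the low-spike set r was 0.46 (exact permutation p = 0.247) and rho 0.43 (exact permutation p = 0.299, n = 8). For TAP1 and PSMB8, again with both stress groups pooled, r was 0.12 (exact permutation p = 0.755) and rho 0.38 (exact permutation p = 0.360) in the high-spike set. In the low-spike set it was 0.35 (exact permutation p = 0.385) and rho 0.64 (exact permutation p = 0.0962, n = 8 in each). Covariation with TAP1 was called for 0 of 16 other probe sets of these genes and for 0 of 14398 probe sets (0%). PSMB8 and the brightest B2M probe set ran opposite to each other at -0.57. The value of -0.57 rested on the high-spike set, where r was -0.79 (exact permutation p = 0.0248) and rho -0.88 (exact permutation p = 0.00724, n = 8), but r was -0.21 without the 2 farthest animals. The other B2M probe sets ran between -0.61 and 0.44 with PSMB8, so this relation also depends on the probe set.

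**Figure D3:**
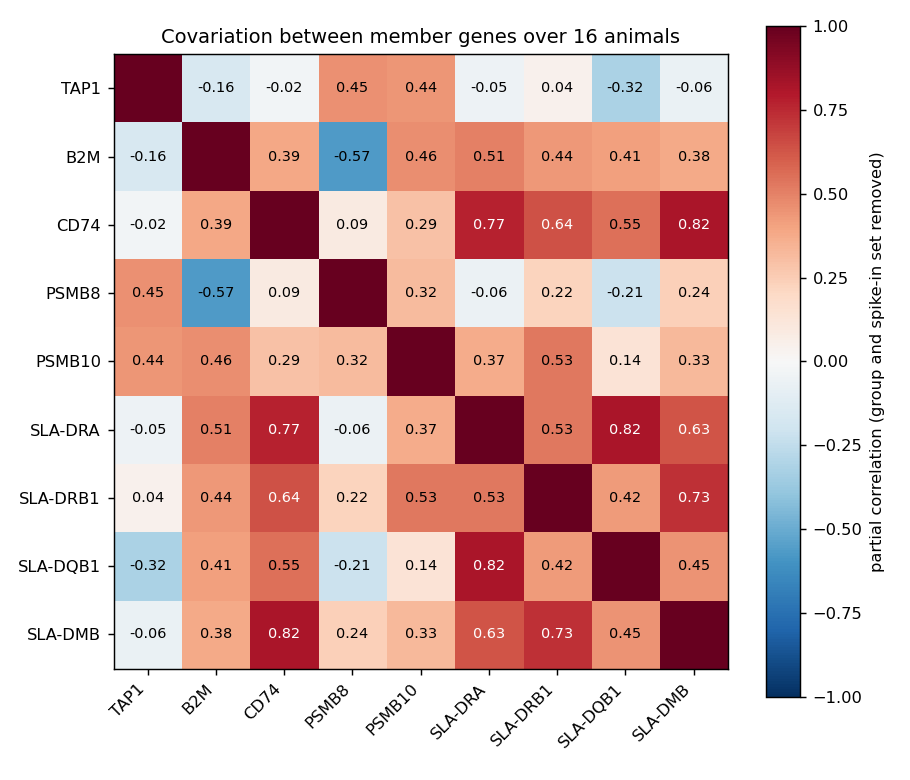
Correlation between the 9 genes over 16 animals after removal of stress group and spike-in set means, on a colour scale between -1 and 1. The class II genes and CD74 are positive with each other (0.42 to 0.82), as the brightest B2M probe set is with them (0.38 to 0.51). TAP1 has 0.45 with PSMB8 and 0.44 with PSMB10.

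**Figure D4:**
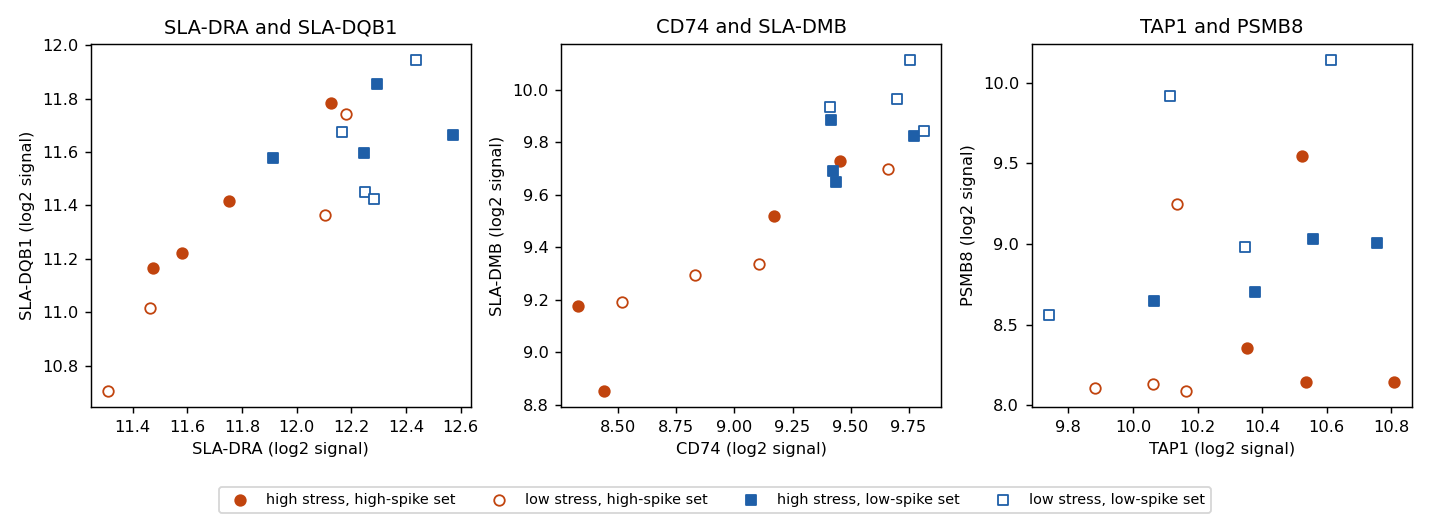
Log2 signal of 3 gene pairs in each animal; filled symbols are high stress, open symbols low stress, circles the high-spike set and squares the low-spike set. SLA-DRA with SLA-DQB1 and CD74 with SLA-DMB rise together across the high-spike animals, and TAP1 with PSMB8 is scattered.

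The genes whose pattern was most like that of TAP1 over the 16 animals were not among the antigen presentation genes. By the moderated t of the TAP1 covariate, the 10 nearest named probe sets were those of RAB32, ZFAND2B, EFHD1, LMBR1L, RUNDC3A, TMEM129, TTLL1, MPDU1, NOC2L and POLR3D. RAB32, a small GTPase of vesicle transport, had a correlation of 0.80 with TAP1, with r of 0.51 in the high-spike and 0.77 in the low-spike set. The r within sets given for RAB32 and the genes below pooled both stress groups, so it is not the same measure as the correlation. ZFAND2B, a zinc finger protein linked to the proteasome, had 0.81, with r of 0.96 in the high-spike and 0.62 in the low-spike set. The 5 most opposite were KNSTRN, BORA, ANKRD28, MTHFD1 and NIT1. KNSTRN, a protein of the mitotic spindle, had -0.81 with group and set means removed. With both stress groups pooled, its r was 0.00 in the high-spike and -0.70 in the low-spike set. BORA, an activator of Aurora A kinase, had -0.78, with r of -0.51 in the high-spike and -0.83 in the low-spike set. None of these passed, and the smallest adjusted p was 0.725 (limma).

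Among the other genes of peptide loading and class I, none came near the difference of TAP1 in the same direction. Of 22 such genes listed 11 were measured, 6 higher and 5 lower in high stress, and 0 passed. Their median log2 difference was 0.01 and the highest 0.09. SLA-3, a classical class I heavy chain, had a log2 difference of -0.40 (SE 0.23), lower in high stress. SLA-8 had -0.12 (SE 0.20), and SLA-7 had 0.09 (SE 0.19). TAPBP (tapasin), which bridges TAP and class I, had 0.02 (SE 0.09). TAP2, the partner of TAP1, had no probe set under its symbol, so the dimer was seen by 1 of its chains.

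Of 5 immunoproteasome genes 4 were measured, 3 higher and 1 lower in high stress, with 0 passing and a median of 0.15. PSME2, a subunit of the PA28 activator that opens the proteasome, had 0.20 (SE 0.09, unadjusted p = 0.0410), and PSME1, its partner, had 0.11 (SE 0.10). A further list held the constitutive subunits PSMB5, PSMB6 and PSMB7 with the activator subunit PSME3. All 4 were higher with a median of 0.13, and 0 passed. PSMB6 had 0.28 (SE 0.14), PSMB7 had 0.17 (SE 0.11), PSMB5 had 0.08 (SE 0.11) and PSME3 had 0.01 (SE 0.08).

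Of 22 class II genes 16 were measured, 7 higher and 9 lower, with 0 passing and a median of -0.01. SLA-DOA, of the DO molecule that restrains DM, had -0.31 (SE 0.22), and SLA-DMA, the partner of SLA-DMB, had 0.21 (SE 0.19). RFXANK, a subunit of the RFX complex that binds class II promoters, had 0.18 (SE 0.13). CIITA, the class II transactivator, was below the filter with a mean log2 signal of 5.33. The 2 probe sets of SLA-DMA did not follow each other (correlation -0.12), so its value is uncertain. SLA-DRA, SLA-DRB1 and the class I genes have close relatives, and signal shared between them cannot be separated by these probes.

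Genes of the interferon response, a signal that induces TAP1 and PSMB8 in many cells, had no shared direction either. Of 44 listed 27 were measured, 11 higher and 16 lower, with 0 passing and a median of -0.03. IRF3, a factor that switches on interferon genes, had 0.25 (SE 0.11, unadjusted p = 0.0404). GBP2 and GBP1, interferon-induced GTPases, had -0.35 (SE 0.19) and -0.32 (SE 0.25), and SP110 had 0.14 (SE 0.12). IFNG itself was below the filter at a mean log2 signal of 2.70.

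**Figure D5:**
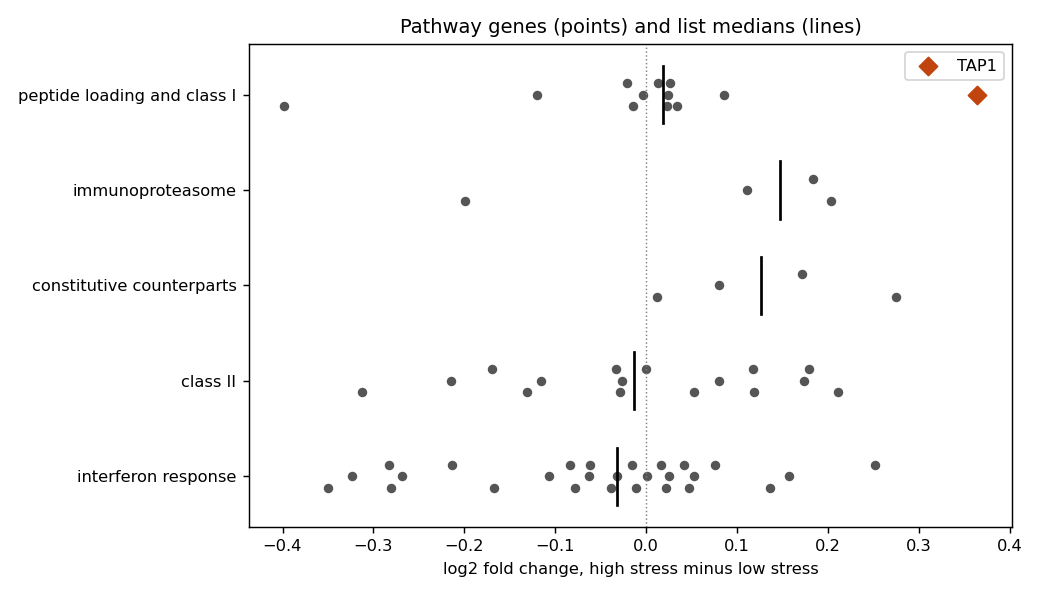
Log2 fold change, high stress minus low stress, of each measured gene in 5 lists of the pathway, with a line at the median of each list. TAP1, the diamond at 0.36, lies to the right of the other peptide loading genes, and the median line of its list, TAP1 included, is at 0.02.

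The tissue was checked against its markers and against those of cells that carry class II. Adrenal cortex genes (6 measured of 8) had a mean log2 signal of 12.52 ± 0.10 in high stress glands, against 12.51 ± 0.16 in low stress glands, and chromaffin genes (3 of 6) had 12.69 ± 0.40 in high stress against 12.67 ± 0.31 in low stress glands (SD, n = 8 each). Myeloid markers (8 measured of 14) averaged 8.95 ± 0.34, between 8.51 and 9.31, in high stress and 9.03 ± 0.25, between 8.74 and 9.52, in low stress glands. The groups overlapped (exact permutation p = 0.567, n = 8 each). The myeloid markers had a median correlation of 0.39 with SLA-DRA and -0.03 with TAP1, but endothelial markers (0.40) and adrenal cortex genes (0.39) had medians of like size with SLA-DRA. Single lymphocyte markers, chosen after their values were seen, were higher: GNLY, the only NK cell marker measured, had 0.60 and the T cell marker CD8A 0.73. The other T cell markers measured were not: CD3D had -0.18 and CD8B 0.08 with SLA-DRA. Only 3 of 8 T cell markers and 0 of 7 B cell markers were measured above the filter, with CD3E at a mean log2 signal of 5.96 and CD79B at 4.19. ITGAM, a myeloid integrin, was also below it, at 3.76. With the mean of the myeloid markers as a covariate the TAP1 log2 difference was 0.36 (SE 0.14). The part of cell makeup in the class II correlations was not tested.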

How the data were processed

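The authors deposited linear MAS5 signal intensity values, which the submitters' processing notes credit to Affymetrix Expression Console 1.1.1, with no MAS5 version. Each deposited column had a mean of 500.1 without its highest and lowest 2%, so arrays had been scaled as a whole, which keeps differences between arrays in the shape of the distribution. The precision is limited by the 16 arrays, and median array signals were 116 to 147. No column was left unused (0) and 0 pairs of columns were identical.

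Values were taken to log2, 124 control probe sets were set aside, and probe sets under the 40th percentile of mean log2 signal were left out, leaving 14399. Of all 23999, 10069 had 1 symbol, 198 several and 13732 none; 3 with several symbols, SLA-DRB1 among them, were not used here. All 9 gene numbers matched the Sscrofa11.1 table, used for names and neighbours. The stress contrast was fitted in R 4.3.3 by limma 3.58.1 (lmFit, eBayes, two-sided, Benjamini-Hochberg over all probe sets tested, threshold 0.05), and single values by exact permutation. The spike-in sets were found from the dap control. For lists the brightest probe set per gene was used, and up to 4 genes with the smallest p were named; genes like TAP1 are the 10 highest and 5 lowest by moderated t, and any other gene was chosen after its value was seen. TAPBP, IFNG, CIITA, CD3E, CD79B, ITGAM, SLA-DMA's second probe set and the uses of PSMB5 and PSMB7 as counterparts are such choices. The genes and lists were chosen with earlier results of these data known. Replicates are separate animals. Alternatives were the filter, normalization, pseudocount, prior, array weights, blocks, covariates and leaving out each animal. The test of a difference between sets, the covariation with genes other than TAP1 and the subunit differences were added after seeing the data. The fits were tested on simulated data. Python 3.11.15 and matplotlib 3.10.9 made the figures.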

Additional observations from a re-analysis of the deposited data

Results flagged for a closer look

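The brightest B2M probe set had 1 low stress animal apart from the others: replicate 3 had a log2 signal of 14.26, where the other 7 low stress animals lay between 14.61 and 14.91. Its gap to the nearest animal was 0.545 of the group's range, above Dixon's 95% critical value for 8 values. In all 34 groups of 8 values (17 probe sets in both stress groups) were examined and 1 stood out, and chance alone flags about 1 in 20. This animal belongs to the high-spike set, in which B2M was lower by 0.28 on the log2 scale.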

How the results depend on the processing

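TAP1 was higher in high stress under every alternative tried and passed the adjusted test under none. Its log2 difference of 0.36 was 0.31 to 0.43 when each animal was left out in turn, and its exact permutation p was 0.00326 to 0.0278; within the low-spike set alone that p was 0.4 (difference 0.23). Median centring gave 0.44, quantile normalization 0.37, and a block by the leading digit in the animal numbers 0.36. The labels give no pairing, but each of the 8 combinations of that digit and the spike-in set held 1 animal of each group; with both as blocks TAP1 had 0.36 (adjusted p = 0.694 by limma). The counts of probe sets called were 0 throughout, also without each animal in turn (0 to 0) for all probe sets, for these genes and for covariation with TAP1; the exceptions are 1 of all probe sets with the spike-in set as a block and 1 with the actin ratio as a covariate beside that block. Genes with small differences changed sign. The B2M value of -0.02 was 0.0119 with quantile normalization, 0.0516 with median centring, 0.00147 within the low-spike set, 0.000998 with the myeloid covariate, 0.0234 with the actin covariate, and -0.0835 to 0.0151 without each animal. The SLA-DRA value of -0.03 was 0.0439 with median centring, 0.0258 with the myeloid covariate, 0.0104 with the actin covariate, and -0.131 to 0.0457 without each animal. The PSMB8 value of -0.20 was 0.155 within the high-spike set, -0.530 with the actin covariate, and -0.320 to -0.0212 without each animal. Median centring shifts whole arrays, so it moved every log2 difference by the same amount. Median array signals were 129.6 ± 10.1 in high stress and 136.2 ± 7.5 in low stress animals (mean and SD, n = 8 each). The cause of the other changes was not tested. CD74, PSMB10, SLA-DRB1, SLA-DQB1 and SLA-DMB kept their direction under all of these, but single animals moved their sizes. Without each animal CD74 was -0.288 (low stress replicate 3) to -0.0475 (high stress replicate 7), SLA-DMB -0.200 (low stress 3) to -0.0330 (high stress 2), SLA-DRB1 -0.304 (low stress 3) to -0.0492 (high stress 2), SLA-DQB1 0.0178 (low stress 6) to 0.195 (low stress 7), and PSMB10 0.129 to 0.263. MAS5 signals of dim probe sets are imprecise, and the values of the 2 dim TAP1 probe sets are given only for completeness.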
